A study of Mus musculus with 8 samples.

Results

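Transcripts of 8 mast cell proteases were followed in poly(A) RNA from mouse blood stem cell populations. The genes were the tryptases Tpsb2 and Tpsab1, the chymase family members Cma1, Mcpt1, Mcpt2 and Mcpt4, the basophil protease Mcpt8 and the carboxypeptidase Cpa3. They were taken by symbol from a list of names, and 8 of 8 were found among the 33504 genes of the expression table. The genes were chosen by their known high FPKM in the cultured cells, so every contrast of these genes with the cultured cells is a description and carries no test.

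The populations were labelled ex-HSC (3 libraries, stage in vitro), FL-HSC (2 libraries, embryonic day 14.5) and pre-HSC (3 libraries, embryonic day 11.5). HSC abbreviates hematopoietic stem cell, while FL means fetal liver. All 8 libraries carry the C57BL/6J background, and the protocols name conceptuses from C57BL/6J females and males that were Ly6a-GFP transgenic or wild type, without saying which library came from which sire. The label in vitro was taken to mean cells recovered after 4 days of culture in reaggregates with OP9 cells, a mouse bone marrow stromal line, with SCF, IL-3 and Flt3L at 100 ng/ml each. A second culture, on Akt-EC endothelial cells, is mentioned with no library assigned to it, and the sort gates are not given. Culture, developmental stage and sort differ together between the groups and cannot be told apart.

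Mast cells store proteases, histamine and serotonin in cytoplasmic granules and release them when IgE bound to the receptor FcεRI is crosslinked. Most of the stored protein is protease of 3 kinds. Tryptases and chymases are serine proteases with trypsin-like and chymotrypsin-like cutting, and carboxypeptidase A3 trims amino acids from the ends of peptides. Several of them, among them the products of Tpsb2, Cma1, Mcpt4 and Cpa3, are stored with the sulfated chains of the proteoglycan serglycin. In mice, Cma1, Mcpt4, Tpsb2 and Cpa3 are typical of connective tissue mast cells, Mcpt1 and Mcpt2 of mucosal mast cells, and Mcpt8 of basophils. SCF, the ligand of Kit, and IL-3 are used as growth factors for mast cells in culture. Mast cell precursors carry few granules and are found in fetal liver.

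The values are FPKM, counts of fragments divided by transcript length and by library size, and they allow levels to be compared between genes. The table holds no counts, so depth is unknown. A value of exactly 0 can be a failed estimate, and such genes are called listed at 0. The libraries had 11682 to 12757 genes at 1 FPKM or higher, but ex-HSC replicate 2 listed 24992 genes above 0, against 15622 to 18374 in the other 7 libraries. Its median-of-ratios size factor was 0.74, against 1.01 and 0.991 in the other ex-HSC libraries, so its deposited values lie low across the genome. Summed over 10 blood and stem cell surface markers such as Kit, Procr and Cd34, the level was 405 to 720 FPKM in ex-HSC, 535 and 550 FPKM in FL-HSC and 427 to 522 FPKM in pre-HSC libraries. In bulk RNA, fewer cells of a type and less RNA per cell cannot be told apart, which applies to every level below.

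All 8 protease genes were highest in ex-HSC libraries, with 3 genes far above the other 5. Cpa3, Cma1 and Tpsb2 made up the upper group, with ex-HSC means of 828 ± 378, 739 ± 344 and 688 ± 274 FPKM (SD, n = 3). In ex-HSC replicate 1 they ranked 103, 111 and 119 among all genes of the table. Mcpt2, Mcpt1, Tpsab1, Mcpt4 and Mcpt8 made up the lower group, with ex-HSC means of 50.4 ± 23.7, 31.4 ± 14.6, 19.3 ± 11.1, 12.8 ± 8.32 and 7.32 ± 4.50 FPKM (SD, n = 3). The lowest ex-HSC library exceeded the highest pre-HSC library for 8 of 8 proteases, where 19.9% of the 13720 genes tested do so, and it exceeded the highest FL-HSC library for 8 of 8, where 15.8% of genes do so. The lowest ex-HSC library was 10-fold or further above each of the 5 other libraries for 8 of 8 proteases and for 124 genes tested, 0.904%. These counts follow from how the list was made and are given for scale.

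The tryptases differed from each other by an order of magnitude. Tpsb2 encodes mMCP-6, the main granule tryptase of mouse mast cells. It was listed at 1004, 534 and 526 FPKM in ex-HSC replicates 1, 2 and 3, at 2.23 and 1.32 FPKM in FL-HSC replicates 1 and 2, and at 0 in all 3 pre-HSC libraries. The 3 groups did not overlap, and the ex-HSC mean was 387-fold the FL-HSC mean. Tpsab1 encodes mMCP-7, and C57BL/6 mice are known to carry a splice site change in this gene that prevents the protein. RefSeq lists Tpsab1 as a transcribed pseudogene, while GENCODE lists it as protein-coding. Tpsab1 stood at 31.9, 14.9 and 11.1 FPKM in ex-HSC replicates 1, 2 and 3 and was listed at 0 in all 5 other libraries. Among these 8 libraries Tpsab1 was above 0 in the 3 ex-HSC libraries only, and in each of them it was lower than Tpsb2.

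Among the chymase family, Cma1 stood far above its neighbours. Cma1 encodes mMCP-5, the mouse orthologue of human chymase, which in the mouse has elastase-like cutting. Its values were 1135, 527 and 554 FPKM in ex-HSC replicates 1, 2 and 3, 1.17 and 1.56 FPKM in FL-HSC, and 0, 0 and 0.352 FPKM in pre-HSC replicates 1, 2 and 3. The groups did not overlap, and the ex-HSC mean was 540-fold the FL-HSC mean. Mcpt2 had 76.7, 43.9 and 30.6 FPKM in ex-HSC replicates 1, 2 and 3 and was listed at 0 in the other 5 libraries. Mcpt1, a chymase of mucosal mast cells, had 47.3, 28.2 and 18.7 FPKM in the same ex-HSC libraries and was likewise listed at 0 elsewhere. Both mucosal genes were thus above 0 in all 3 ex-HSC libraries and in no other library. Mcpt4, the connective tissue chymase nearest to human chymase in its cutting, had 22.4, 8.96 and 7.18 FPKM in ex-HSC, 0.119 FPKM in FL-HSC replicate 1, and was listed at 0 in FL-HSC replicate 2 and in all 3 pre-HSC libraries.

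Cpa3 was the protease with the most transcripts in ex-HSC and the one with signal in all 8 libraries. Cpa3 had 1264, 617 and 603 FPKM in ex-HSC replicates 1, 2 and 3, 2.83 and 3.44 FPKM in FL-HSC, and 0.705, 0.487 and 5.73 FPKM in pre-HSC replicates 1, 2 and 3. The ex-HSC libraries lay above all others, while pre-HSC replicate 3 lay above both FL-HSC libraries and the other pre-HSC libraries lay below them. The ex-HSC mean was 264-fold the FL-HSC mean and 359-fold the pre-HSC mean. Mcpt8, which encodes mMCP-8 and marks basophils in the mouse, had the lowest ex-HSC values, at 12.4, 5.63 and 3.91 FPKM in replicates 1, 2 and 3. It was at 0.175 FPKM in FL-HSC replicate 2 and listed at 0 in FL-HSC replicate 1 and in all 3 pre-HSC libraries.

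**Figure D1:**
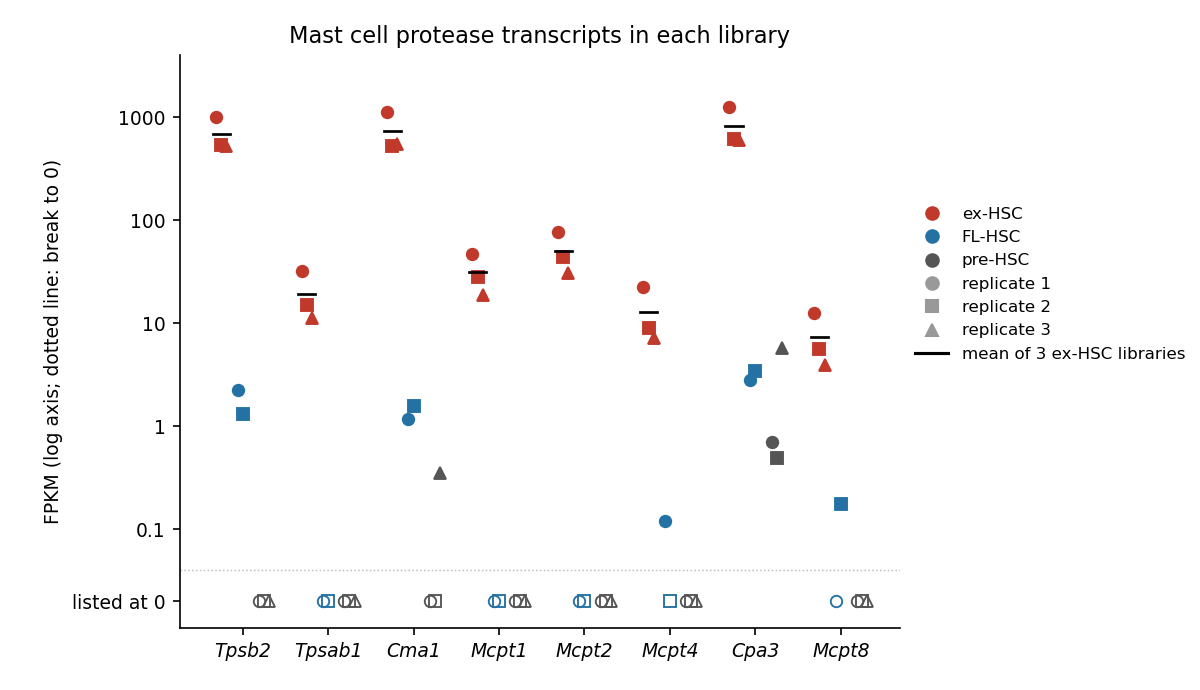
FPKM on a log axis for each protease (columns) in each library, with ex-HSC red, FL-HSC blue and pre-HSC grey, the replicate number given by the marker shape, black bars for the mean of 3 ex-HSC libraries, and open markers below the dotted line for values listed at 0. Replicate 1 is the highest ex-HSC library for all 8 genes, and Tpsb2, Cma1 and Cpa3 lie at 526 FPKM or higher in each ex-HSC library.

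Summed over the 8 genes, the proteases took 0.494%, 0.322% and 0.239% of all FPKM in ex-HSC replicates 1, 2 and 3. The share was 0.000853% and 0.00101% in FL-HSC replicates 1 and 2. It was 0.000125%, 8.42e-05% and 0.00101% in pre-HSC replicates 1, 2 and 3, so pre-HSC replicate 3 matched FL-HSC replicate 2. In ex-HSC, 94.3% to 95.9% of the summed protease FPKM came from Tpsb2, Cma1 and Cpa3.

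The order of the 8 genes was the same in all 3 ex-HSC libraries, apart from Tpsb2 and Cma1, which stood at 534 and 527 FPKM in replicate 2. Neighbours in that order overlapped over the libraries, apart from Tpsb2 and Mcpt2. The means of Cpa3, Cma1 and Tpsb2 differed by less than 1 SD, and the range of Mcpt2, 30.6 to 76.7 FPKM, overlapped that of Mcpt1, 18.7 to 47.3 FPKM. Ratios taken within a library do not depend on how the library was scaled, and some of them were tight. Mcpt2 was 1.62, 1.56 and 1.64 times Mcpt1 in ex-HSC replicates 1, 2 and 3, and Cpa3 was 1.11, 1.17 and 1.09 times Cma1. Tpsb2 was 0.884, 1.01 and 0.950 times Cma1, and Mcpt4 was 1.80, 1.59 and 1.84 times Mcpt8. Other ratios were looser, within the lower group too, where Mcpt2 was 3.42, 4.90 and 4.26 times Mcpt4. Between the upper and lower groups the spread was similar, with Cma1 at 50.7, 58.8 and 77.1 times Mcpt4 and Tpsb2 at 31.4, 35.9 and 47.2 times Tpsab1, the highest ratio in replicate 3 in both cases.

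The 3 ex-HSC libraries differed in protease level, and replicate 1 was the highest for 8 of 8 genes. Over all genes above 0 in the 3 libraries, replicate 1 was the highest for 49.4%, and after median-of-ratios scaling for 34.6%. Replicate 1 exceeded the mean of replicates 2 and 3 by 1.89-fold for Tpsb2 to 2.77-fold for Mcpt4, with a median over the 8 genes of 2.09-fold, or 1.06 on the log2 scale. The same median over 13288 genes was 0.23, with quartiles of 0.05 and 0.45. After scaling, the proteases' median was 0.80 and the median over all genes was 0.01. A ratio as high as the lowest protease was found for 716 of the 13288 genes, 5.39%, and for 766, 5.76%, after scaling. There is 1 library on 1 side of this ratio, so it has no test.

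Replicates 2 and 3 split the proteases into the same upper and lower groups, a split noticed after the values were seen. Replicate 2 was 0.952 to 1.02 times replicate 3 for Cma1, Tpsb2 and Cpa3. It was 1.25 times replicate 3 for Mcpt4, 1.34 times for Tpsab1, 1.43 times for Mcpt2, 1.44 times for Mcpt8 and 1.51 times for Mcpt1. Scaling raised these ratios to 1.27 for Cma1, 1.36 for Tpsb2 and 1.37 for Cpa3, and to 2.02 for Mcpt1, so that replicate 2 then lay between replicates 1 and 3 for all 8 genes. Over all genes the median log2 ratio of replicate 2 to replicate 3 was -0.47 as deposited, while it was 0.37 over the proteases.

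Most genes of several other lists were highest in replicate 1 as well, and most neutrophil granule genes were not. Of 25 other mast cell genes (receptors, mediator enzymes and cytokines), 22 were highest in replicate 1, with a median log2 ratio to the mean of replicates 2 and 3 of 0.85 as deposited and 0.64 after scaling. Of 16 neutrophil granule genes, 1 was highest in replicate 1, with a median of -0.46 as deposited, and 0 of 16 were after scaling, with a median of -0.74. Replicate 1 was also the highest for 26 of 31 granule and storage genes, 10 of 13 basophil markers, 9 of 10 blood and stem cell markers and 9 of 12 macrophage genes, and after scaling for 23, 9, 9 and 5 of them. The trait was thus shared with lists that are not particular to mast cells. These lists share genes, with Fcer1a, Ms4a2 and Il4 in the mast cell and basophil lists and Kit in the mast cell and stem cell lists. After scaling, the macrophage share of 41.7% lay near the 34.6% of all genes. Of 6 related proteases outside the set, 2 were highest in replicate 1, with a median of -0.185 as deposited and -0.452 after scaling. The summed FPKM of the 30 listed mast cell genes was 2210, 1020 and 1380 in ex-HSC replicates 1, 2 and 3, that of the neutrophil genes 719, 1050 and 892, and that of macrophage genes 292, 266 and 226. The part of cell mixture in the difference between these libraries was not tested.

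**Figure D2:**
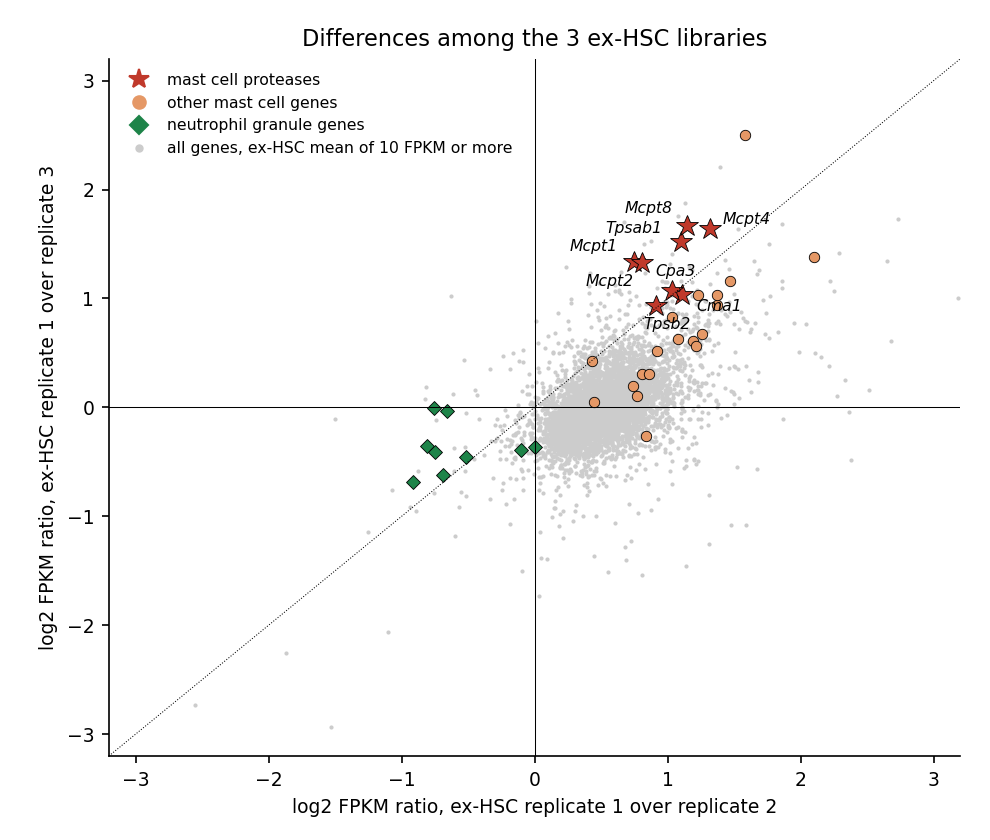
Log2 FPKM ratio of ex-HSC replicate 1 to replicate 2 (horizontal) and to replicate 3 (vertical), as deposited, for the 8 proteases (stars), 19 other mast cell genes (circles), 9 neutrophil granule genes (diamonds) and all genes with an ex-HSC mean of 10 FPKM or more (grey, 16 genes outside the axes). All 8 stars lie above 0 on both axes, 5 of them well above the dotted line of equal ratios, and the diamonds lie at 0.0053 or lower on both axes.

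Between fetal liver and embryo, Tpsb2 and Cma1 were higher in FL-HSC and Cpa3 did not pass the test. The other 5 proteases reached 1 FPKM in ex-HSC libraries only and lay at or near 0 in both groups compared here, so they could not pass and get no test. Both FL-HSC libraries lay above all 3 pre-HSC libraries for Tpsb2 and Cma1, as they did for 39.4% of the genes tested. In the limma fit across 13720 genes, 43.3% of genes were called in this comparison at an adjusted p under 0.05, made up of 22.9% higher and 20.4% lower in FL-HSC, and median-of-ratios scaling moved the median over all genes by -0.14 (log2). Tpsb2 rose in FL-HSC, by 1.45 ± 0.30 (SE) on the log2(FPKM + 1) scale, at a limma adjusted p of 0.00254, with values of 2.23 and 1.32 FPKM in FL-HSC against 0 in each of 3 pre-HSC libraries. This size depends on the pseudocount, since pre-HSC is at 0, and was 4.19 with a pseudocount of 0.1. The fit pools the spread of all 3 groups, so the SE and p-values here also hold the ex-HSC spread, at far higher FPKM. Mcpt1, listed at 0 in all 5 libraries compared, still had an SE of 0.32. These p-values thus do not measure spread within FL-HSC and pre-HSC alone. Cma1 rose by 1.09 ± 0.33 at a limma adjusted p of 0.0197, with 1.17 and 1.56 FPKM in FL-HSC against 0, 0 and 0.352 FPKM in pre-HSC. The call for Cma1 was lost without either FL-HSC library, at adjusted p of 0.0505 without replicate 1 and 0.0930 without replicate 2, and without pre-HSC replicate 1, at 0.0571. With a single FL-HSC library left, that library is assumed to vary like the other groups. Tpsb2 was called under every alternative tried, with adjusted p between 6.27e-06 and 0.0296.

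Cpa3 did not pass the test in FL-HSC against pre-HSC, with a difference of 0.68 ± 0.56 on the log2(FPKM + 1) scale and a limma adjusted p of 0.353. That value turned on pre-HSC replicate 3, without which the difference was 1.37 at an adjusted p of 0.00929. Pre-HSC replicate 3 was the highest pre-HSC library for 17 of 25 other mast cell genes, for 11 of 13 macrophage genes and for 39.7% of all genes tested. The summed FPKM of the macrophage genes was 767, 294 and 1580 in pre-HSC replicates 1, 2 and 3. Their part in the Cpa3 value was not tested. Mcpt4 and Mcpt8 each had 1 FL-HSC library above 0, at 0.119 and 0.175 FPKM. Mcpt1, Mcpt2 and Tpsab1 were listed at 0 in FL-HSC and in pre-HSC. Whether replicates came from separate embryos or cultures is not stated, so each p-value reflects spread between libraries, those of ex-HSC included, that may be technical.

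The genes lie in 2 clusters and at 1 separate locus. On GRCm38, the 5 chymase-type genes lie on chromosome 14, Cma1 at chr14:55941451-55944675, Mcpt1 at chr14:56017971-56020384, Mcpt2 at chr14:56042041-56044642, Mcpt4 at chr14:56059629-56062313 and Mcpt8 at chr14:56082166-56085273. The tryptases lie on chromosome 17, Tpsab1 at chr17:25343245-25345562 and Tpsb2 at chr17:25366305-25369098. Cpa3 lies on chromosome 3, at chr3:20215620-20242181. The submitters' notes name mm9, so these positions place the genes by symbol and are not those of the deposited processing.

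Within the chromosome 14 cluster, 8 of 15 genes of the table had an ex-HSC mean of 1 FPKM or more, against 2 in FL-HSC and 0 in pre-HSC. Of those 8, 5 were proteases of the set chosen by their ex-HSC values, so the count follows in part from that choice. Over the 33504 genes of the table, 11682 to 11797 reached 1 FPKM in an ex-HSC library. The cluster spans 321 kb, with Cma1 at 1 end and the cytotoxic protease Gzmb at the other. Ctsg, the cathepsin G gene of neutrophils and some mast cells, stood at 29.7, 47.9 and 45.8 FPKM in ex-HSC replicates 1, 2 and 3, 27.0 and 24.1 FPKM in FL-HSC, and at 0 in pre-HSC. Unlike Cma1 it was lowest in ex-HSC replicate 1, at 0.0262, 0.0909 and 0.0827 times Cma1 in replicates 1, 2 and 3. Gzmb had 192, 108 and 67.8 FPKM in ex-HSC, was listed at 0 in both FL-HSC libraries, and had 0, 0.0430 and 0.959 FPKM in pre-HSC. Between these genes, Cma2 stood at 0.932 FPKM and Mcpt9 at 0.146 FPKM on average in ex-HSC, and granzymes Gzmd, Gzme, Gzmf, Gzmg and Gzmn were all under 1 FPKM. High values in ex-HSC were thus not shared by all genes of the cluster.

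Within the chromosome 17 cluster of 6 genes over 76 kb, 4 had an ex-HSC mean of 1 FPKM or more, 2 of them proteases of the chosen set. Tpsg1, a tryptase anchored in the membrane, had 83.3, 43.6 and 49.4 FPKM in ex-HSC replicates 1, 2 and 3 and was listed at 0 in the other 5 libraries. It kept a narrow ratio to its neighbour Tpsb2, at 0.0829, 0.0816 and 0.0939 in the 3 ex-HSC libraries. On the same strand, Tpsb2 ends at chr17:25369098 and Tpsg1 starts at chr17:25369273. Whether transcripts run from Tpsb2 into Tpsg1 was not tested. Prss34, the basophil protease mMCP-11, had 1.04, 0.874 and 1.39 FPKM in ex-HSC, 0.250 FPKM in FL-HSC replicate 1, and 0 in the rest. Prss28 was listed at 0 in ex-HSC, and Prss29 averaged 0.06 FPKM there.

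**Figure D3:**
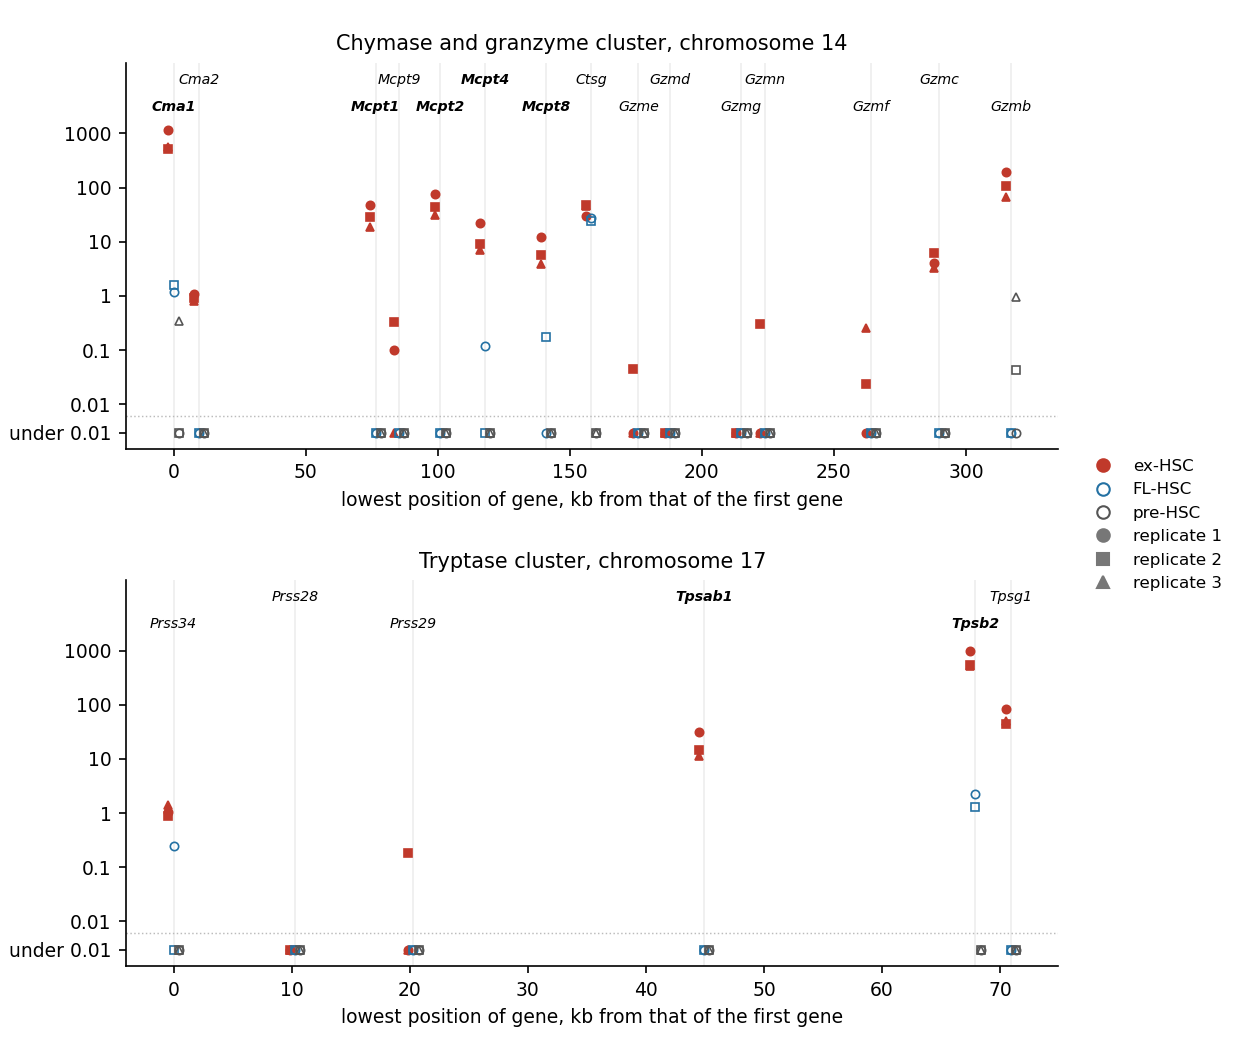
FPKM on a log axis for each gene of the chromosome 14 cluster (upper panel, 15 genes) and the chromosome 17 cluster (lower panel, 6 genes) against distance along GRCm38 in kb, with ex-HSC filled red, FL-HSC open blue and pre-HSC open grey, marker shapes for replicates and values under 0.01 FPKM below the dotted line. Names of the 8-gene set are in bold, and Ctsg is the cluster gene with FL-HSC values near those of ex-HSC.

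Close copies in these clusters can share reads, so the coding sequences of the mucosal and connective tissue chymases are shown for their first 75 bases, the read length. Capitals mark the 3 positions at which the 3 genes differ (GENCODE transcripts, chromosome 14, coding strand, 5′ to 3′).
Mcpt1: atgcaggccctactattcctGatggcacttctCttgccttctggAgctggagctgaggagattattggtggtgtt
Mcpt2: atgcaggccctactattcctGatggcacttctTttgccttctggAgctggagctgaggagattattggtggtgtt
Mcpt4: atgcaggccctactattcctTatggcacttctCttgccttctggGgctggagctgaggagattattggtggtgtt
Over their whole coding sequences, Mcpt1 and Mcpt4 were 87.0% identical, Mcpt1 and Mcpt2 82.6%, and Mcpt2 and Mcpt4 80.4%. The transcripts of Tpsb2 and Tpsab1 matched at 76.3% of 824 aligned bases.

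Exact sharing of whole reads was nonetheless rare in the GENCODE transcripts. No run of 75 bases from Tpsb2, Tpsab1, Cpa3, Mcpt1, Mcpt2 or Mcpt8 occurred in another gene. In Mcpt4, 26 of 1034 such runs, 2.51%, occurred in Cma2 too, and in Cma1 17 of 1000, 1.70%, occurred in the predicted gene Gm48934, which has no row in the table. With up to 2 mismatches allowed against genes of the clusters, the share was 17.2% for Cma1, 10.3% for Mcpt4, 6.28% for Mcpt1 and 5.67% for Mcpt2, and 0% for Tpsb2, Tpsab1, Cpa3 and Mcpt8. How the submitters assigned shared reads is not given in the sources used here. Mir7007 lies within Cpa3 and Mir6949 within Mcpt8, both on the strand of the gene, and the library kit is not stated to keep strand.

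RefSeq promoter windows of 300 bases around the start were found for 5 of the 8 genes, Cma1, Cpa3, Mcpt1, Mcpt4 and Mcpt8. The windows of Mcpt1, Mcpt4 and Cpa3 are shown because these 3 hold a GATA motif, a RUNX motif and a TATA motif, and because Mcpt1 and Mcpt4 are near copies. Capitals mark the GATA motif, spelled AGATAA in some genes and TGATAA in others. They also mark the RUNX motif TGTGGT, which reads ACCACA on the opposite strand, and the TATA motif, spelled TATAAA. No motifs overlap, and sequences are given 5′ to 3′ on the gene's strand of GRCm38.p6. The windows are chr14:56017714-56018013 on the plus strand for Mcpt1, chr14:56062261-56062560 on the minus strand for Mcpt4 and chr3:20242132-20242431 on the minus strand for Cpa3.
Mcpt1: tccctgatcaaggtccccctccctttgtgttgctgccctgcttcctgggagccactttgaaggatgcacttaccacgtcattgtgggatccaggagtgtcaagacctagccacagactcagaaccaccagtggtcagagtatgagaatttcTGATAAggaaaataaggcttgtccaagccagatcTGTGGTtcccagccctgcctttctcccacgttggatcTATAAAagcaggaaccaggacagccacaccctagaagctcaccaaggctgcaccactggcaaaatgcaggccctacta
Mcpt4: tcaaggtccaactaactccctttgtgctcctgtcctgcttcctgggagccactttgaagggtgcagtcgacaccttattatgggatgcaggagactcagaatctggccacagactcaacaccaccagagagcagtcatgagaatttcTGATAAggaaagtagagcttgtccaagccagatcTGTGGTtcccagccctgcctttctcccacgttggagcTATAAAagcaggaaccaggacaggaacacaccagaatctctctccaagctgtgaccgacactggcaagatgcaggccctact
Cpa3: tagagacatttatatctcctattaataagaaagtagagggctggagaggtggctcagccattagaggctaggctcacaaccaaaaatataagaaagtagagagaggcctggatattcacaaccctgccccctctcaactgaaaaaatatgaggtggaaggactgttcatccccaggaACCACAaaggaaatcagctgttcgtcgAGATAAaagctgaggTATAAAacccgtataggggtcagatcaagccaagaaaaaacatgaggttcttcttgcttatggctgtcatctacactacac

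The windows of Mcpt1 and Mcpt4 were 85.6% identical over 291 aligned bases. In Mcpt1, TGATAA began 99 bases, TGTGGT 65 bases and TATAAA 28 bases before the start, and in Mcpt4 the same motifs began 103, 69 and 32 bases before it. In Cpa3, ACCACA began 73 bases, AGATAA 46 bases and TATAAA 31 bases before the start. GATA motifs are bound by GATA1 and GATA2 and RUNX motifs by RUNX1, factors that act in blood cells. Of 32851 RefSeq promoter windows, 18.6% hold a GATA motif of either spelling on either strand, 16.8% hold the RUNX motif on either strand, 3.64% hold a GATA and a RUNX motif together, and 8.32% hold the TATA motif on the gene's strand. Cma1 held ACCACA beginning 33 bases after its start, and Mcpt8 held TGTGGT 188 bases and ACCACA 139 bases before its start, with no GATA or TATA motif of these letters in either. The hexamer CATGTG and its variant spelled CACGTG, bound by MITF among others, were in none of the 5 windows on either strand and in 14.2% and 7.15% of all windows. A match or its lack says nothing about binding.

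Among relatives of the proteases outside the list, those that rose in ex-HSC included Gzmb, Ctsg and Tpsg1. In ex-HSC against pre-HSC, limma called 44.1% of the genes tested, 15.7% higher and 28.4% lower, and median-of-ratios scaling moved the median over all genes by 0.15 (log2) and the share of called genes that were higher to 48.5%, against 35.6% as deposited. Of 29 listed relatives in the clusters and the carboxypeptidase family, 8 were tested, of which 5 rose and 3 fell. The number that fell was 2 after scaling and 1 without pre-HSC replicate 1 or without pre-HSC replicate 3, and with a filter of 5 FPKM, which tests fewer genes, 3 rose and 0 fell. Ctsg rose with pre-HSC listed at 0, at a limma adjusted p of 3.01e-08. Gzmb, Tpsg1, Gzmc and Prss34, the others that rose, reached 1 FPKM in ex-HSC libraries only. They passed the filter through the group where they are high, so their rises are a description and carry no test. Gzmb rose by 6.48 ± 0.37 (SE) on the log2(FPKM + 1) scale. Among those that fell were Prss41 and the pancreatic carboxypeptidase gene Cpa1, each at under 5 FPKM in all libraries. In FL-HSC against pre-HSC, 2 of the same 8 rose, where 22.9% of all genes were higher and 20.4% lower. Ctsg rose by 4.73 ± 0.24 at a limma adjusted p of 1.87e-07. Prss41 was at 3.90 and 3.39 FPKM in FL-HSC against 0.631 to 1.28 FPKM in pre-HSC. It passed the filter only through FL-HSC, so its rise carries no test. The number that fell in the limma fit was 2, but 1 without any 1 of the ex-HSC or FL-HSC libraries, and 0 without pre-HSC replicate 1, without pre-HSC replicate 3 or with quantile normalization. In FL-HSC against ex-HSC, 1 of 8 was higher and 4 were lower, beside 24.1% and 9.15% over all genes. The 4 were Gzmb, Tpsg1, Gzmc and Prss34 and the 1 was Prss41, so these counts are a description too. The differences were -6.82 ± 0.41 for Gzmb and -5.84 ± 0.28 for Tpsg1.

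Genes that load and hold the granule contents did not move as a group. In ex-HSC against pre-HSC, 8 of 31 genes rose, 6 fell and 17 did not pass the test, beside 15.7% higher and 28.4% lower over all genes. The median was 0.05 (log2) beside -0.16 over all genes. Hdc, which makes histamine, had 1219, 468 and 588 FPKM in ex-HSC against 1.76, 0.979 and 3.54 FPKM in pre-HSC replicates 1, 2 and 3, a rise of 7.90 ± 0.37 at a limma adjusted p of 5.48e-08. Srgn, which encodes serglycin, the proteoglycan of the granules, had 2346, 1183 and 1558 FPKM in ex-HSC against 57.3, 65.8 and 94.2 FPKM in pre-HSC, a rise of 4.50 ± 0.26 at an adjusted p of 2.45e-07. The groups did not overlap for either gene. Rab27b, which takes part in granule exocytosis, rose by 2.34 ± 0.25 at a limma adjusted p of 2.30e-05. Papss2, which makes the sulfate donor for heparin, rose by 2.38 ± 0.28. Papss2 passed the filter only through ex-HSC, so its rise carries no test. Ctsc, which encodes the enzyme that activates granule serine proteases by removing their leading dipeptide, had 102, 56.7 and 83.3 FPKM in ex-HSC against 85.8, 37.1 and 141 FPKM in pre-HSC, with overlapping groups and a limma adjusted p of 0.957.

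In FL-HSC the granule genes had no common direction either. Against pre-HSC, 7 of 31 rose, 4 fell and 20 did not pass, with 8 falling after scaling. Over all genes 22.9% were higher and 20.4% lower, so the share that rose lay near that of all genes. Ctse, an aspartic protease of endosomes, Unc13d, which primes granules for release, Srgn and Stxbp2 rose by 3.34 ± 0.42, 3.22 ± 0.23, 2.56 ± 0.29 and 1.95 ± 0.28 (SE), at limma adjusted p of 0.000114, 2.02e-06, 5.42e-05 and 0.000263. Srgn was at 421 and 422 FPKM in FL-HSC, above all pre-HSC and below all ex-HSC libraries. In FL-HSC against ex-HSC, 33.3% of genes were called, 24.1% higher and 9.15% lower in FL-HSC, and scaling shifted the overall median by -0.285 (log2). Of the 31 granule genes, 6 were higher there, 6 lower and 19 did not pass, with a median of 0.217 beside 0.268 over all genes. Ctse and Unc13d were among the higher ones, by 1.86 ± 0.42 and 1.47 ± 0.23, at limma adjusted p of 0.00749 and 0.00109. Hdc, Rab27b and Srgn fell in FL-HSC against ex-HSC, with differences of -6.62 ± 0.41, -2.13 ± 0.28 and -1.95 ± 0.29, at limma adjusted p of 3.11e-06, 0.000349 and 0.000770. Papss2 differed by -3.07 ± 0.31, with no test.

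Other mast cell genes rose in ex-HSC for the most part. Of 30 listed, 24 had an ex-HSC mean of 1 FPKM or more, and their summed level was 1020 to 2210 FPKM in ex-HSC, 388 and 367 FPKM in FL-HSC and 246 to 511 FPKM in pre-HSC. Neutrophil granule genes moved the same way: of 17 in the table, 16 had an ex-HSC mean of 1 FPKM or more, against 12 in FL-HSC and 4 in pre-HSC, and their sum was 719 to 1050 FPKM in ex-HSC, 631 and 520 FPKM in FL-HSC and 31.7 to 48.2 FPKM in pre-HSC. Of 25 mast cell genes tested, 19 rose against pre-HSC, 1 fell and 5 did not pass, beside 15.7% higher and 28.4% lower over all genes. Their median was 2.04 (log2) beside -0.16 over all genes. Of the 19, Tph1, Cyp11a1, Fcer1a, Ms4a2, Slc6a4, Rgs13, Il13 and Il6 passed the filter only through ex-HSC. This count is thus in part a description. Without pre-HSC replicate 2, 2 fell. Tph1, which starts serotonin synthesis, had 399, 170 and 195 FPKM in ex-HSC against 0.846, 0.0777 and 0.219 FPKM in pre-HSC, a rise of 7.47 ± 0.33. Cyp11a1, a steroid-synthesis enzyme, rose by 6.78 ± 0.32. Tph1 and Cyp11a1 passed the filter only through ex-HSC, so their rises carry no test. The integrin gene Itgb7 and the IL-33 receptor gene Il1rl1 rose by 5.09 ± 0.23 and 4.95 ± 0.48, at limma adjusted p of 4.65e-08 and 1.05e-05. The 1 gene that fell was Enpp3, a surface nucleotide phosphatase of basophils and mast cells. It had 0.108, 0.206 and 0.135 FPKM in ex-HSC against 17.6, 20.2 and 17.6 FPKM in pre-HSC, a difference of -4.08 ± 0.18. Enpp3 passed the filter only through pre-HSC, so its fall carries no test. The IgE receptor chain Fcer1a stood at 8.27, 3.96 and 3.82 FPKM in ex-HSC and was listed at 0 in the other 5 libraries. Mrgprb1 and Mrgprb2, receptors of connective tissue mast cells, stayed under 1 FPKM in ex-HSC, at 0.804, 0.669 and 0.243 and at 0.462, 0.235 and 0.132 FPKM, and were listed at 0 elsewhere.

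In FL-HSC against pre-HSC, 6 of the 25 genes were higher, 4 lower and 15 did not pass, with a median of 0, and these shares lie near the 22.9% higher and 20.4% lower over all genes. After scaling 4 were higher and 5 lower. Without pre-HSC replicate 1, pre-HSC replicate 2 or either FL-HSC library 3 were higher, and without FL-HSC replicate 2 the number lower was 2. Kit, the SCF receptor, rose by 1.69 ± 0.30 at a limma adjusted p of 0.00106. The prostaglandin synthase Hpgds and the leukotriene synthase Ltc4s fell, with differences of -2.47 ± 0.35 and -1.94 ± 0.51, at limma adjusted p of 0.000241 and 0.0103. Enpp3 differed by -4.08 ± 0.20, with no test, as it passed the filter only through pre-HSC. Against ex-HSC, 18 of 25 were lower in FL-HSC and 7 did not pass, where 9.15% of all genes were lower. Among the 18, Tph1, Cyp11a1, Fcer1a, Ms4a2, Slc6a4, Rgs13, Il13 and Il6 passed the filter only through ex-HSC. The count is thus in part a description. The median was -2.60 beside 0.27 over all genes. Tph1, Cyp11a1, Alox5 and Lat2 fell the furthest there, with differences of -7.72 ± 0.37, -5.89 ± 0.35, -4.45 ± 0.36 and -4.31 ± 0.28. The limma adjusted p was 1.46e-05 for Alox5 and 4.29e-06 for Lat2, while Tph1 and Cyp11a1 carry no test.

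Transcription factors known from mast cells had no common direction in ex-HSC against pre-HSC, where 4 of 14 rose, 4 fell and 6 did not pass. Over all genes 15.7% were higher and 28.4% lower. With median-of-ratios scaling, quantile normalization or array weights 7 of the 14 rose. Gata1 and Ikzf1 rose by 2.41 ± 0.29 and 2.23 ± 0.23, at limma adjusted p of 5.83e-05 and 1.48e-05, and Meis2 and Tcf4 fell, with differences of -3.53 ± 0.29 and -1.23 ± 0.23, at adjusted p of 2.85e-06 and 0.00116. In FL-HSC the counts leaned to higher values as deposited. Against ex-HSC, 7 of 14 were higher and 1 lower, beside 24.1% higher and 9.15% lower over all genes. The median was 0.93 (log2) beside 0.27 over all genes, and 3 were lower after scaling. All genes thus leaned the same way, with 72.5% of calls higher as deposited and 50.4% after scaling. Against pre-HSC 7 of 14 rose and 3 fell, beside 22.9% higher and 20.4% lower over all genes. Gata1 was at 64.7 and 42.7 FPKM in FL-HSC against 0.871, 1.05 and 0.799 FPKM in pre-HSC, a rise of 4.81 ± 0.33 at a limma adjusted p of 1.25e-06. Gata1 was thus higher in FL-HSC than in ex-HSC, where it stood at 14.6, 6.00 and 8.43 FPKM, by 2.41 ± 0.33 at an adjusted p of 0.000413, which is the reverse order of the proteases. Mitf, which drives mast cell genes, had 3.69, 1.90 and 3.37 FPKM in ex-HSC, 0.959 and 1.59 FPKM in FL-HSC and 1.63, 0.644 and 2.32 FPKM in pre-HSC. The pre-HSC range overlapped both others, while all ex-HSC libraries lay above both FL-HSC libraries. The limma adjusted p was 0.0828 in ex-HSC against pre-HSC.

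Protease inhibitors moved both ways in ex-HSC against pre-HSC, where 6 of 17 rose and 6 fell, beside 15.7% higher and 28.4% lower over all genes. Serpinb2, Serpina3f and Slpi, among those that rose, passed the filter only through ex-HSC, so the count is in part a description. In FL-HSC against pre-HSC 4 of 17 rose and 7 fell, beside 22.9% higher and 20.4% lower over all genes. The shares over all genes in FL-HSC against ex-HSC were 24.1% higher and 9.15% lower. Serpinb2 and Serpina3f count among the inhibitors lower there, again with no test. In FL-HSC against ex-HSC 6 were lower, among them Serpinb1a and Cst7 with differences of -3.98 ± 0.27 and -2.35 ± 0.28 at limma adjusted p of 5.63e-06 and 0.000196, and 1 was higher, a call lost without FL-HSC replicate 2. Serpinb1a, a cytosolic inhibitor of neutrophil-type and chymotrypsin-like proteases, had 234, 148 and 176 FPKM in ex-HSC against 1.61, 2.55 and 3.21 FPKM in pre-HSC, a rise of 5.76 ± 0.24 at a limma adjusted p of 3.33e-08. Cst7, an inhibitor of lysosomal cysteine proteases, rose by 4.57 ± 0.25 at an adjusted p of 1.65e-07. Timp1 and Timp3, inhibitors of metalloproteases, fell, with differences of -3.27 ± 0.26 and -3.25 ± 0.23, and also fell in FL-HSC against pre-HSC. The limma adjusted p was 1.02e-06 for Timp3, while Timp1 passed the filter only through pre-HSC and carries no test. Lxn, the inhibitor of carboxypeptidase A enzymes, had 88.0, 38.4 and 49.1 FPKM in ex-HSC against 43.3, 45.7 and 49.8 FPKM in pre-HSC, with overlapping groups and a limma adjusted p of 0.497.

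**Figure D4:**
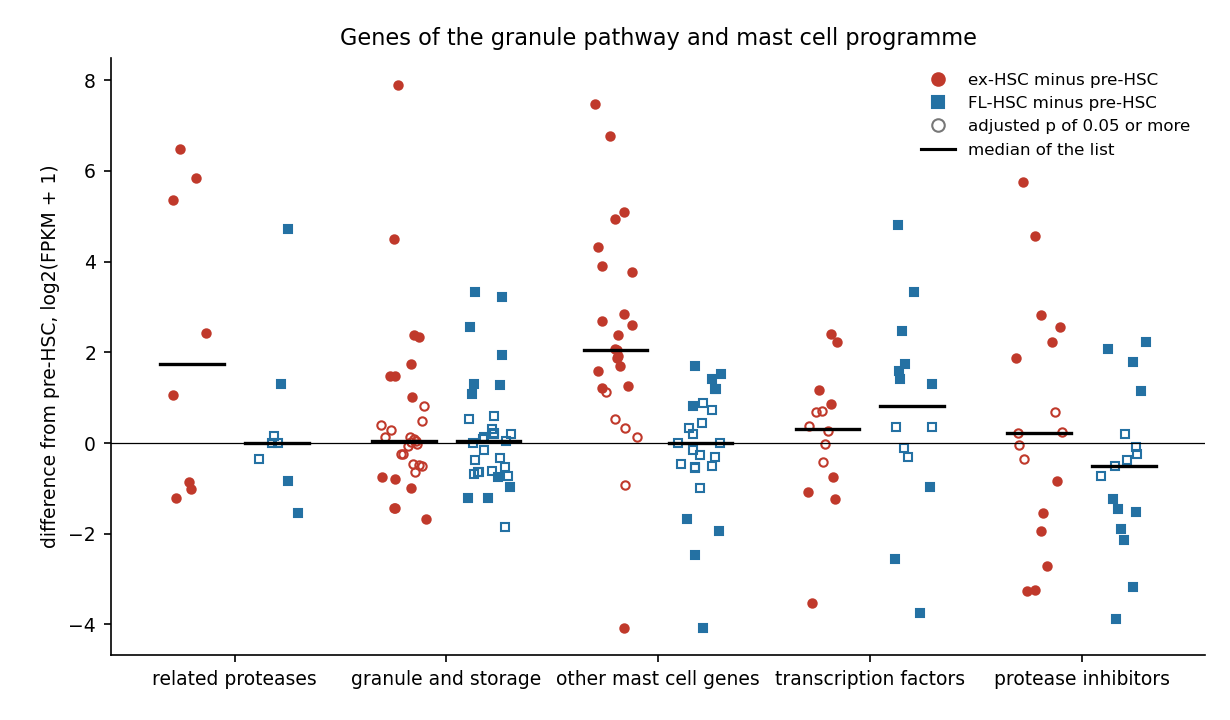
Difference from pre-HSC on the log2(FPKM + 1) scale for each tested gene of 5 lists (8 related proteases, 31 granule and storage genes, 25 other mast cell genes, 14 transcription factors and 17 protease inhibitors), with ex-HSC as red circles and FL-HSC as blue squares, filled where the limma adjusted p is under 0.05, and a black bar at each list's median. The ex-HSC median of the other mast cell genes lies at 2.04, and the FL-HSC median of the same genes lies at 0.

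Profiles most like that of the proteases were sought over the 8 libraries. The mean profile of the 8 genes, in log2(FPKM + 1) after centring each gene, was 4.40, 3.42 and 3.15 in ex-HSC replicates 1, 2 and 3, -1.94 and -1.93 in FL-HSC, and -2.46, -2.48 and -2.16 in pre-HSC replicates 1, 2 and 3. Of 9943 other genes, 25 had a Pearson r with it of 0.99 or more and 160 of 0.95 or more. All of these genes share the same 8 libraries and a gap between ex-HSC and the other groups, so r is a description. Among the 10 highest were Fgl2 (0.998), Cd200r3 (0.997), Tpsg1 (0.997), Cyp11a1 (0.996), Cd244 (0.996), Ccl1 (0.996), Gpr141 (0.995), Pdcd1 (0.995) and Hdc (0.994). Cd200r3 encodes a receptor of basophils and mast cells, and had 42.1, 21.1 and 22.0 FPKM in ex-HSC replicates 1, 2 and 3. Pdcd1, which encodes the receptor PD-1, had 9.35, 6.68 and 6.02 FPKM in ex-HSC, was listed at 0 in both FL-HSC libraries, and had 0, 0.140 and 0 FPKM in pre-HSC. Fgl2, a fibrinogen-like protein, had 44.0, 22.5 and 22.6 FPKM in ex-HSC, 2.30 and 1.78 FPKM in FL-HSC, and 1.31, 1.36 and 1.92 FPKM in pre-HSC.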

How the data were processed

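RNA of 8 libraries was sequenced as paired reads after poly(A) selection. The authors deposited 1 table of FPKM per gene and library, per the file headers. The submitters' processing notes name Cufflinks, featureCounts, edgeR, DESeq and the build mm9, with no versions or roles. The table's 27 rows that bear dates in place of symbols were left out. The 13720 genes that reached 1 FPKM in 2 or more of the 8 libraries were put on the log2(FPKM + 1) scale and fitted in 1 limma 3.58.1 model (R 4.3.3) with a mean per group, empirical Bayes and an intensity trend. P-values were adjusted by Benjamini-Hochberg over all genes, and a call is an adjusted p under 0.05. The fit was tested on simulated data. All 8 proteases passed the filter, 5 of them with no FL-HSC or pre-HSC library at 1 FPKM. Gzmb, Tpsg1, Gzmc, Prss34, Tph1, Cyp11a1 and Papss2 likewise passed only through ex-HSC, and their contrasts with it carry no test. The same holds for Fcer1a, Ms4a2, Slc6a4, Rgs13, Il13, Il6, Serpinb2, Serpina3f and Slpi. Enpp3, Timp1 and Cpa1 passed only through pre-HSC and Prss41 only through FL-HSC, so their contrasts with those groups carry no test. The counts of called genes per list still include these genes. Sequences are from GENCODE M21 and RefSeq (GRCm38). The longer Tpsab1 transcript 202 was used. Alignments used Biopython 1.88. The proteases and the gene lists were chosen with earlier results of these data known. From each list, up to 4 called genes with the largest changes per comparison were selected, and part of those selected are given in counts alone or are not reported here. Genes named beyond that rule (Enpp3, Ctsc, Lxn, Mitf, Fcer1a, Mrgprb1, Mrgprb2, Prss34 and the cluster genes) were chosen for their roles or positions with their values known. Likeness was limited to genes of 5 FPKM or more in the highest group. As alternatives, the pseudocount was set to 0.1 or 0.5, the filter was dropped or raised to 5 FPKM, values were quantile-normalized or scaled by median of ratios, libraries were weighted, the trend was dropped, a replicate block was added, isolated zeros were treated as missing, and each library was left out in turn.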

Additional observations from a re-analysis of the deposited data

How the results depend on the processing

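Tpsb2 kept its FL-HSC call under every alternative run. The count of 2 proteases called in FL-HSC against pre-HSC was 1 with no filter, through Cma1 at an adjusted p of 0.0647, and ranged between 1 and 3 when 1 library was left out. Mcpt4 and Mcpt8, near 0 in both groups and unable to pass, turned to -0.069 and -0.041 (log2) with the replicate block. The block rests on replicate numbers alone, and same-numbered libraries had deviations correlated between -0.114 and 0.144. With 2 or 3 libraries a group, these correlations cannot tell whether equal numbers pair the samples. With the block 6146, 5891 and 4328 genes were called in ex-HSC against pre-HSC, FL-HSC against pre-HSC and FL-HSC against ex-HSC, beside 6050, 5947 and 4564 without it. The call count in FL-HSC against ex-HSC ranged from 2789 to 4418 over left-out libraries, lowest without FL-HSC replicate 2 and at 2865 without replicate 1. Scaling by median of ratios moved its share of higher calls to 50.4%, against 72.5% as deposited. The median log2 ratio of ex-HSC replicate 1 to the mean of replicates 2 and 3 over the proteases, 1.06, was 0.80 after scaling, 0.81 after quantile normalization, 1.07 against replicate 2 alone and 1.33 against replicate 3 alone. An alternative chosen after seeing the data, scaling by median of ratios after ex-HSC replicate 2 was dropped, left 2 proteases called and 6619, 6573 and 3816 genes in the 3 comparisons. With no counts in the table, depth gives no interval for the values near 0.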

Other observations

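Basophil and eosinophil genes give further values on the cultured cells. Of 14 basophil markers other than Mcpt8, 12 had an ex-HSC mean of 1 FPKM or more, with sums of 332, 143 and 233 FPKM in ex-HSC replicates 1, 2 and 3, 57.0 and 40.8 FPKM in FL-HSC, and 172, 76.7 and 243 FPKM in pre-HSC, so that the sums of ex-HSC and pre-HSC overlapped. The overlap did not hold for each gene. Cd200r3, at 0.204 to 0.466 FPKM in pre-HSC, Fcer1a, Ms4a2, Il4 and Prss34 lay higher in every ex-HSC library than in any pre-HSC library. Cebpa did overlap, at 7.64 to 9.11 FPKM in ex-HSC and 2.71 to 12.9 FPKM in pre-HSC. Of 9 eosinophil markers in the table, 5 had an ex-HSC mean of 1 FPKM or more, with sums of 18.4 to 24.8 FPKM in ex-HSC, 85.2 and 25.0 FPKM in FL-HSC, and 0.118 to 0.914 FPKM in pre-HSC. The sum of 12 stromal markers, which OP9-type cells would carry, was 26.2 to 45.2 FPKM in ex-HSC, 21.6 and 22.2 FPKM in FL-HSC, and 818 to 1080 FPKM in pre-HSC.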
